A study of Mus musculus with 14 samples.

Results

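Mice carrying 2 copies of the DG allele of Vcp (DG/DG, n = 4) were compared with mice carrying 1 copy (DG/+, n = 6), so that every animal compared held the allele and the groups differed in its dose. The comparison used 10 of the 14 libraries of the series, chosen by genotype alone. All 14 mice were C57BL/6J and 15 months old, RNA came from the anterior cortex, and each mouse gave 1 library. The remaining 4 libraries, from wild-type mice (WT), added to the estimate of the spread between mice and are quoted only as a reference range. All genes were described: 19360 gene symbols had a row in the table, of which 14565 had enough reads to be tested and 4795 did not. Sex, litter, batch and date are not in the labels, nor is how the allele was made.

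Vcp encodes valosin-containing protein, also called p97, a hexameric ATPase that pulls ubiquitin-tagged proteins out of membranes, complexes and aggregates. Cofactors bind it and direct it to tasks that include degradation of proteins from the endoplasmic reticulum, delivery of clients to the proteasome, autophagy and clearance of damaged lysosomes. In neurons it is known for its part in neurodegenerative disease, and the title of the series describes a dominant allele with reduced function and the disaggregation of tau filaments.

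The 10 libraries held 10.31 to 15.91 M counts (M for mega), and Spearman's correlation of levels across genes between any pair of them was 0.979 to 0.994. The cortical glutamatergic neuron gene Slc17a7 lay at 735 to 1081 CPM in DG/+ and at 761 to 957 CPM in DG/DG, where CPM is counts per mega-count of the scaled library. Several libraries stood apart. Pituitary hormone transcripts were abundant in DG/DG replicate 1, choroid plexus transcripts in DG/+ replicates 1, 5 and 6, cerebellar transcripts in DG/+ replicate 2, and striatal transcripts in DG/+ replicate 4 and DG/DG replicate 3. Xist, the RNA of the inactive X chromosome, was above 100 CPM in 4 of 6 DG/+ and 3 of 4 DG/DG libraries, and was nearly absent from DG/+ replicates 3 and 4 and DG/DG replicate 3. In bulk tissue, fewer cells of a type and less RNA per cell cannot be told apart.

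Across the transcriptome, no gene passed the threshold of an adjusted p below 0.05 by edgeR's quasi-likelihood test (0 of 14565 genes, 0%). The lowest adjusted p was 0.972. DESeq2 and limma-voom also called 0 genes. At an unadjusted p under 0.05 there were 481 genes (3.3%), fewer than the 728 that evenly spread p values give, of which 245 (1.68%) stood higher and 236 (1.62%) stood lower in DG/DG. DESeq2 placed 222 higher and 251 lower at that limit, and limma-voom 256 and 228. These counts moved with single libraries. Without DG/+ replicate 1 they were 145 and 144, without DG/+ replicate 4 they were 347 and 557, and without DG/DG replicate 1 they were 298 and 370.

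Most genes had nearly the same level in both genotypes, as measured. The middle of the distribution, from its 25th to its 75th percentile, ran from a log2 fold change of -0.09 to 0.085, and the 5th and 95th percentiles were -0.31 and 0.27. The 95% confidence interval of a gene reached a median of 0.251 on the log2 scale to either side of its estimate. Differences over 2-fold were seen for 48 of the 13997 genes that averaged 1 CPM or more, 30 higher and 18 lower. For 0 of these 48 were the DG/DG and DG/+ libraries free of overlap, and 22 had an unadjusted p under 0.05. Among all tested genes, every DG/DG library lay above every DG/+ library for 117 genes (0.803%) and below for 59 (0.405%), 176 genes in all (1.21%).

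**Figure D1:**
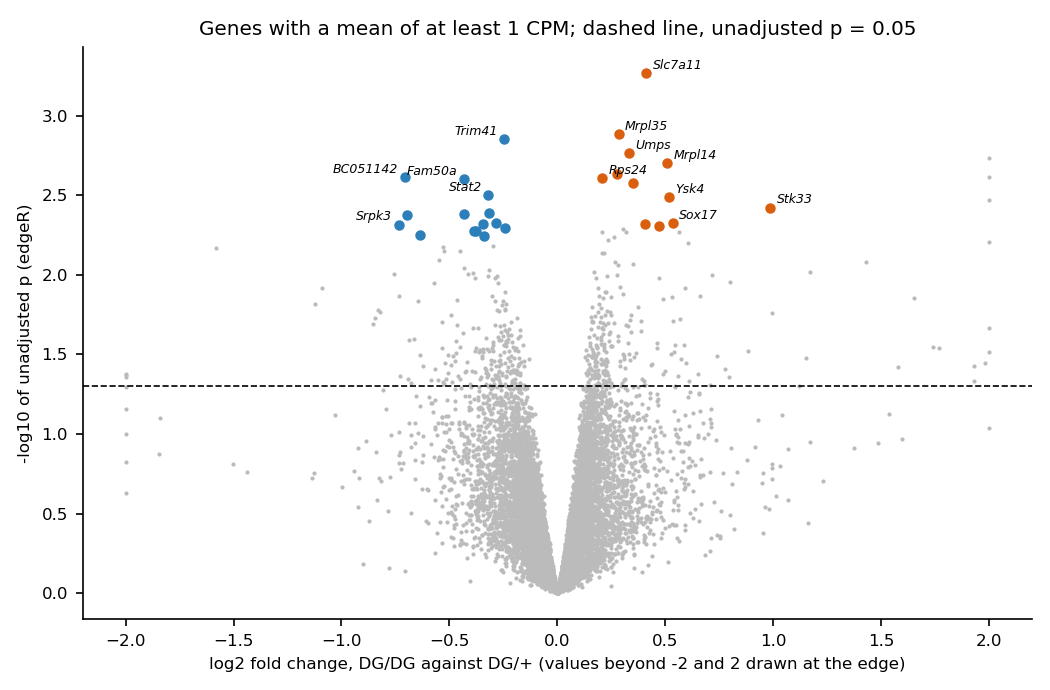
Log2 fold change of DG/DG against DG/+ (horizontal axis) and -log10 of the unadjusted edgeR p (vertical axis) for each of the 13997 genes averaging 1 CPM or more. Orange and blue points are the ranked genes in each direction without the pituitary hormones, and Slc7a11 lies at the top at 0.41.

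Vcp itself was the first gene examined. Its level was 114.1, 106.6, 115.1 and 106.8 CPM in DG/DG replicates 1 to 4, and 92.2 to 104.0 CPM in DG/+ with a median of 101.5. All DG/DG libraries lay above all DG/+ libraries, by a small margin between DG/DG replicate 2 and DG/+ replicate 2. The mean log2 level differed by 0.147, with a two-sided exact permutation p of 0.00952, the smallest that 210 splits allow. In edgeR the log2 fold change was 0.15 (SE 0.064, adjusted p = 0.972 over all genes), and its unadjusted p of 0.0364 was above 0.05 in 5 of 10 fits that left out a library. Leave-outs of single libraries gave differences from 0.12 to 0.16. Without DG/+ replicates 1, 5 and 6, where choroid plexus transcripts were abundant, it was 0.0997 (exact permutation p = 0.0571, the smallest those libraries allow).

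The partners of Vcp showed no common direction. Of 33 genes tested, cofactors and Vcp itself, 16 stood higher and 17 lower (median log2 fold change -0.0058), against 50.6% of all genes higher and a median of 0.0023. Vcp was the member at an unadjusted p under 0.05 (3.03% of the list, against 1.68% of all genes in the higher direction). Both Vcp and Derl1 had DG/DG libraries above all DG/+ libraries (6.06%, against 0.803%). The list's median lay between -0.011 and 0.031 with each library left out. Derl1, a channel component for protein export from the endoplasmic reticulum, was at 68.9 to 78.8 CPM in DG/DG and 62.5 to 68.8 CPM in DG/+, with a log2 difference of 0.18 (SE 0.093, edgeR unadjusted p = 0.0731). Faf2, a membrane adaptor that recruits Vcp, had a log2 fold change of 0.10, and the adaptors Ubxn1 and Ubxn11 had values of -0.15 and -0.28.

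The higher gene with the smallest p was Slc7a11, which encodes the transport subunit of the cystine and glutamate exchanger that supplies cystine for glutathione and releases glutamate, in brain mostly from astrocytes. It was at 151.2, 135.8, 127.4 and 127.4 CPM in DG/DG replicates 1 to 4. In DG/+ the lowest, median and highest libraries were at 94.96, 101.7 and 110.1 CPM. All DG/DG libraries lay above all DG/+ libraries, and the WT libraries spread from 86.4 to 127.4 CPM, across the DG/+ range and up to the lowest DG/DG library. The means were 135.5 ± 11.2 CPM (SD, n = 4) and 101.7 ± 6.06 CPM (SD, n = 6), 1.33-fold apart (log2 fold change 0.41, SE 0.096, adjusted p = 0.972 by edgeR). Leaving out any library kept the value between 0.36 and 0.44, with an unadjusted edgeR p of at most 0.0034.

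Slc7a11 lies on chromosome 3 (50364936 to 50499087). Its promoter window is shown because the gene had the smallest p of the higher genes, though it missed the adjusted threshold. The gene is a known target of both the amino acid response and NRF2. Whether either took part in the difference was not tested. The window is the 250 bases before the start in RefSeq's GRCm38.p6 promoter table (chr3:50443614-50443863, minus strand), inside the annotated span of the gene. Capitals mark matches to TGATGNAA, the C/EBP-ATF response element, searched on both strands. The matches begin 66 and 47 bases before the start, the first on the gene's strand and the second on the opposite strand.
Slc7a11: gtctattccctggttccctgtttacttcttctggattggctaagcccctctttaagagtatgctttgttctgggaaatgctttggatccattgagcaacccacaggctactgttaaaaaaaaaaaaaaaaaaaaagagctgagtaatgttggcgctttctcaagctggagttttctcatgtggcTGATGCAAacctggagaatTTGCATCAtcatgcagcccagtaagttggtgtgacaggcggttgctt
The same motif was present in 1134 of 32851 promoter windows of that length (3.45%). The letters of the antioxidant response element, TGACNNNGC, were not in the Slc7a11 window and were in 10.2% of all windows. A match is a description of the letters and does not show binding.

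The ribosomal protein genes Mrpl35, Mrpl14 and Rps24 were among the 15 higher genes with the smallest p. None passed the adjusted threshold, and their roles are given as a description only. Mrpl35, a protein of the large mitochondrial subunit, was at 27.5, 24.6, 24.7 and 28.6 CPM in DG/DG and at 20.6 to 23.1 CPM in DG/+ (median 21.4). The groups did not overlap, but WT, at 22.8 to 26.8 CPM, overlapped both. The log2 fold change was 0.28 (SE 0.073, adjusted p = 0.972 by edgeR). Mrpl14, of the same subunit, was at 7.17, 9.68, 9.68 and 7.496 CPM against 5.03 to 6.93 CPM, a log2 fold change of 0.51, and its locus overlaps Tmem63b, whose reads cannot be separated if counting ignored strand. Rps24, a protein of the small cytosolic subunit, was at 120.4, 119.1, 115.9 and 120.2 CPM against 95.1 to 111.6 CPM in DG/+ (median 102.2). The WT libraries for Rps24 lay within the DG/+ range, at 102.5 to 104.6 CPM, and its log2 fold change was 0.21. When each library was adjusted for the length and GC content of transcripts, this value was 0.10.

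The other higher genes had varied roles. Umps, the enzyme that completes synthesis of uridine monophosphate, was at 22.2, 25.8, 23.8 and 25.3 CPM in DG/DG and 16.4 to 20.8 CPM in DG/+ (median 20.4), a log2 fold change of 0.33. Its DG/DG libraries lay above every DG/+ library, and WT, at 19.4 to 22.6 CPM, overlapped both. Gtf2b, the general transcription factor TFIIB, was at 30.2 to 35.1 against 23.3 to 28.6 CPM, a log2 fold change of 0.27. Chrac1, a histone-fold subunit of chromatin remodelling and DNA polymerase complexes, had a value of 0.41, and the zinc finger gene Zfp449 one of 0.35. Sox17, an endothelial transcription factor of arteries, was at 3.63, 3.92, 3.67 and 4.79 CPM in DG/DG and 2.14 to 3.43 CPM in DG/+ (median 2.74). Its WT libraries, at 3.86 to 5.09 CPM, lay above all DG/+ libraries and overlapped DG/DG, unlike those of the other 14 genes, where WT overlapped DG/+. The remaining genes were Ysk4 (0.52), Stk33 (0.99) and Spata6 (0.47), and Stk33 was at 2.46 CPM or less in each of the 14 libraries.

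Of the 15 higher genes, 3 encode pituitary hormones and rested on DG/DG replicate 1. Pomc, Gh and Prl were at 321.7, 1049 and 2737 CPM in that library. The next highest of the 10 libraries was DG/DG replicate 2, at 9.44, 17.9 and 72.6 CPM, and DG/+ libraries reached 3.82, 7.33 and 15.8 CPM. The log2 fold changes of 5.97, 6.62 and 6.69 became 1.81, 1.33 and 1.93 without DG/DG replicate 1, with unadjusted edgeR p values of 0.0544, 0.235 and 0.162. The other 12 genes kept an unadjusted p under 0.05 with each of the 10 libraries left out. Of the 15 genes, 9 had DG/DG libraries above all DG/+ libraries, beside 0.803% of all genes. Since the 15 were ranked on the same libraries, neither count is a test.

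**Figure D2:**
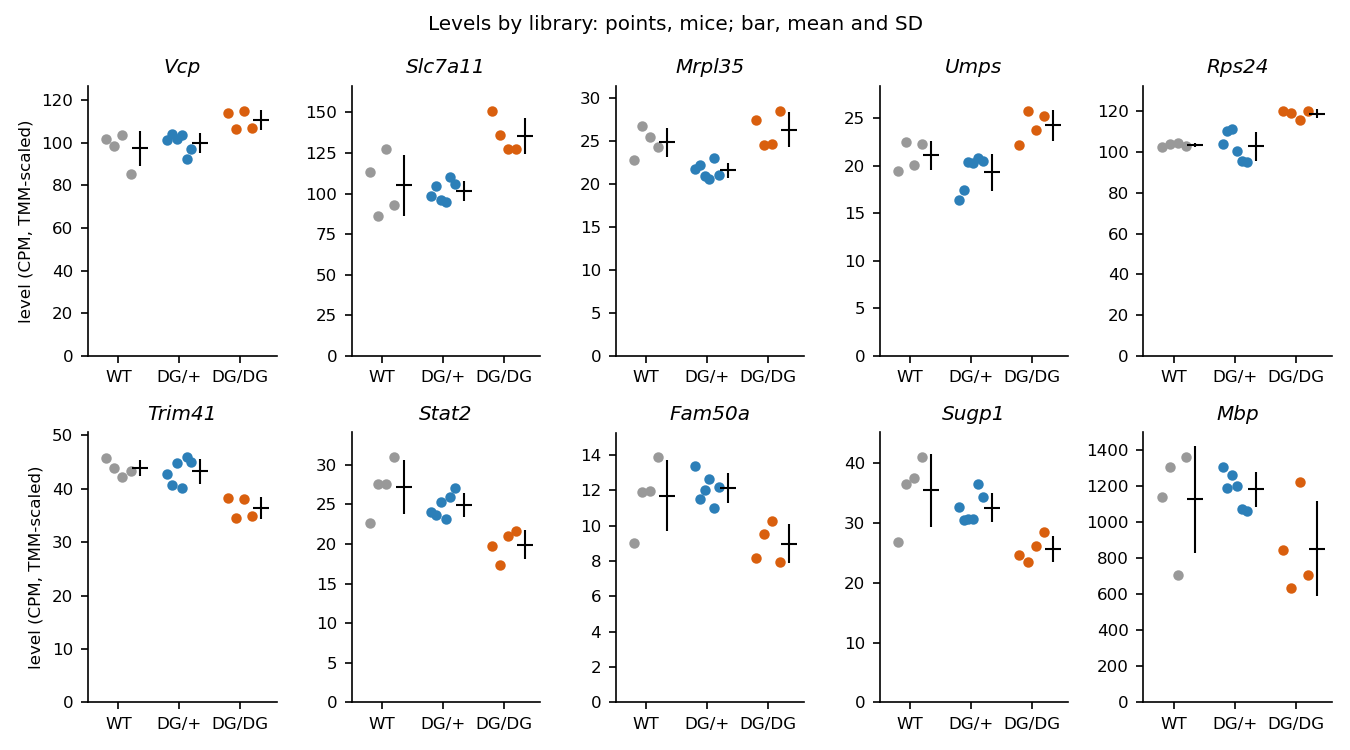
Level of each of 10 genes in CPM (vertical axes, from 0) in WT, DG/+ and DG/DG, with a point for each mouse and a bar for the mean and SD of the group (n = 4, 6 and 4). DG/DG points lie above the DG/+ points for Vcp, Slc7a11, Mrpl35, Umps and Rps24 and below them for Trim41, Stat2, Fam50a and Sugp1, and overlap them for Mbp because DG/DG replicate 3 is at 1226 CPM.

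The lower gene with the smallest p was Trim41, an E3 ubiquitin ligase of the tripartite motif family. Its level was 38.3, 34.5, 38.2 and 34.95 CPM in DG/DG replicates 1 to 4. The lowest, median and highest DG/+ libraries were at 40.2, 43.8 and 46.0 CPM. All DG/DG libraries lay below all DG/+ libraries and below WT, which was at 42.3 to 45.8 CPM. The means were 36.5 ± 2.05 CPM (SD, n = 4) and 43.3 ± 2.38 CPM (SD, n = 6), a log2 fold change of -0.25 (SE 0.064, adjusted p = 0.972 by edgeR). With the length and GC offset it was -0.18.

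Trim41 lies on chromosome 11 (48806403 to 48818199). Its promoter window (chr11:48817392-48817641, minus strand, GRCm38.p6, RefSeq) is shown as the counterpart of the Slc7a11 window.
Trim41: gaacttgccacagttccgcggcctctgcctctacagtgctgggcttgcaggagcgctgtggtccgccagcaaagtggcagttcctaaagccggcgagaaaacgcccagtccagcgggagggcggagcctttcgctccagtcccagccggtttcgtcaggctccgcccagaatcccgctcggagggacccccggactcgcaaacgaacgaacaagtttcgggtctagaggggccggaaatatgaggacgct
Neither motif searched was found in it. Its GC content was 63.2%, against 43.2% for the Slc7a11 window. The transcripts differed likewise as groups: the median GC content was 55.3% for the 15 lower genes, 47.6% for the 15 higher genes and 50.5% for all tested genes. Across 14314 genes the log2 fold change had a Spearman's rho of -0.241 with transcript GC content and -0.097 with transcript length. These genes share the same 10 libraries and are not independent. The part of base composition in the fold changes was not tested further. All 30 ranked genes kept their direction with the offset, but they were ranked on the same libraries, so this is not a test. The values of Trim41 and Rps24 were smaller in size with it, as given above.

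The splicing genes Sugp1, Srrm3, Rbfox3 and Srpk3 and the interferon signalling gene Stat2 were among the 15 lower genes with the smallest p. None passed the adjusted threshold, and their roles are given as a description only. Sugp1, a spliceosome-associated protein, was at 24.7, 23.4, 26.2 and 28.4 CPM in DG/DG and at 30.5 to 36.5 CPM in DG/+ (median 31.7). The groups did not overlap, and WT spread from 26.9 to 41.0 CPM, with the lowest WT library inside the DG/DG range. Its log2 fold change was -0.34 (SE 0.105). Srrm3, which promotes inclusion of neuronal microexons, had libraries at 30.2 to 34.8 CPM against 35.8 to 42.3 CPM and a value of -0.24. Rbfox3, the neuronal splicing factor known as NeuN, was at 103.3 to 145.4 against 135.4 to 195.1 CPM with overlap, and had a value of -0.38. Srpk3, a kinase of splicing factors best known in muscle, had a value of -0.73 at 1.77 to 3.52 CPM in DG/DG.

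Stat2, the transcription factor that carries type I interferon signals, was at 19.7, 17.4, 21.004 and 21.6 CPM in DG/DG and at 23.2 to 27.1 CPM in DG/+ (median 24.7). All DG/DG libraries lay below all DG/+ libraries and also below WT, which ran from 22.7 to 30.98 CPM. The log2 fold change was -0.32 (SE 0.092, adjusted p = 0.972 by edgeR). Its locus overlaps Apof. Sp100, a nuclear body protein induced by interferon, was at 0.959 to 1.95 CPM against 1.98 to 2.89 CPM, a log2 fold change of -0.64.

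Mitochondrial and other genes completed the lower ranks. Txn2, mitochondrial thioredoxin, was at 46.9, 30.2, 49.4 and 46.5 CPM in DG/DG and at 50.3 to 68.1 CPM in DG/+ (median 57.8). DG/DG replicate 2 was the lowest, and the log2 fold change of -0.43 became -0.29 without it. Slc25a26, the mitochondrial carrier of S-adenosylmethionine, was at 7.86 to 9.92 CPM against 10.6 to 11.9 CPM, a value of -0.32, and its locus overlaps Lrig1. Fam50a, a nuclear protein encoded on the X chromosome, was at 8.15, 9.52, 10.2 and 7.93 CPM against 10.97 to 13.4 CPM (median 12.1), a value of -0.43. Polr3c, a subunit of RNA polymerase III, had a value of -0.34, the presynaptic protein gene Prrt2 -0.28 and the inositol phosphatase gene Inpp5j -0.39. The others were BC051142 (-0.71), Rnf207 (-0.70) and Tchh (-0.64), each under 10 CPM in every library. All 15 kept an unadjusted p under 0.05 with each library left out, and 10 of 15 had libraries without overlap, beside 0.405% of all genes. These 15 were ranked on the same libraries too, so neither count is a test.

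**Figure D3:**
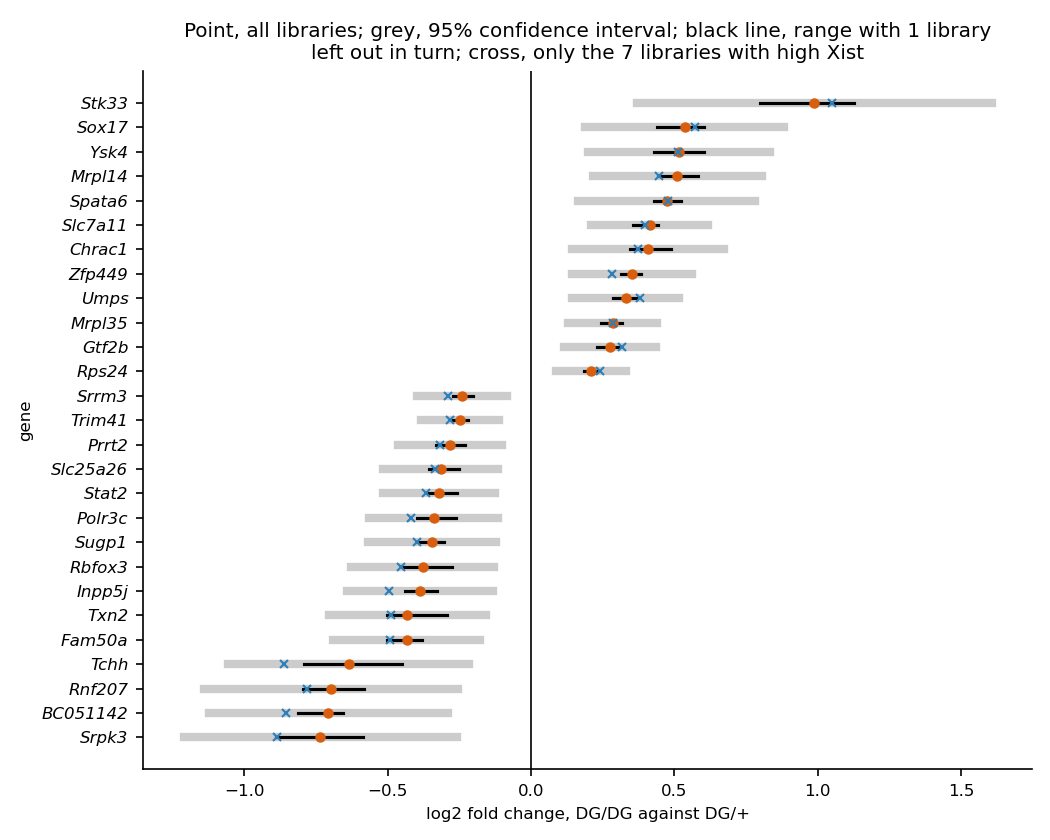
Log2 fold change (horizontal axis) of the 27 ranked genes other than Pomc, Gh and Prl, with the 95% confidence interval, the range when each of the 10 libraries is left out in turn, and the value from the 7 libraries with high Xist. The leave-out ranges are narrower than the intervals and stay on their side of 0.

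Genes of protein synthesis stood slightly higher in DG/DG as a group, none past the adjusted threshold. Of 78 cytosolic ribosomal protein genes tested, 66 stood higher (84.6%, against 50.6% of all genes), with a median log2 fold change of 0.14. An unadjusted p under 0.05 was reached by 14 of them in the higher direction (17.9%, against 1.68% of all genes) and by 0 in the lower. Their summed level, over all listed genes in the table, was 3741 to 3979 CPM in DG/DG and 3320 to 3819 CPM in DG/+, with DG/+ replicate 2 as the highest DG/+ library and inside the DG/DG range. For 6 genes the DG/DG libraries lay above all DG/+ libraries (7.69%, against 0.803% of all genes), among them Rps24, Rpl14, Rpl32, Rpl41 and Rps3. Rpl32 was at 63.4, 65.3, 64.7 and 61.4 CPM against 51.8 to 60.0 CPM. Rps20, Rps25 and Rps7 had log2 fold changes of 0.19, 0.19 and 0.24 with overlapping libraries.

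The ribosomal median moved with the libraries used and with the length and GC offset. It lay between 0.11 and 0.15 with each library left out, at 0.087 with the length and GC offset, and at 0.051 without DG/+ replicates 1, 5 and 6. The median transcript length was 795 bases for these genes and 3026 bases for all tested genes. Their median GC content was 51.9%, against 50.5% for all tested genes. The parts of length and GC content in the offset were not tested separately. Ribosomal protein genes have many near-identical processed copies in the genome, so their counts are uncertain where the authors' counting could split reads between copies. Whether the choroid plexus transcripts in these 3 libraries took part in the difference was not tested.

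Mitochondrial translation and respiration genes also stood higher, by smaller medians. Of 77 mitochondrial ribosomal protein genes, 65 stood higher (84.4%, median log2 fold change 0.089), with 8 at an unadjusted p under 0.05 in the higher direction (10.4%, against 1.68% of all genes) and 1 in the lower (1.3%, against 1.62%). Every DG/DG library exceeded the DG/+ libraries in the summed level of these genes, at 1661 to 1735 CPM against 1533 to 1659 CPM. The lowest DG/DG and highest DG/+ libraries were nearly level, and WT replicate 1, at 1740 CPM, lay above every DG/DG library. Mrpl49 was at 34.5 to 38.5 CPM against 31.3 to 33.8 CPM, and Mrpl1 had a log2 fold change of 0.23. Mrpl12, which also binds the mitochondrial RNA polymerase, was the lower one, at 13.8 to 25.8 CPM against 20.5 to 26.4 CPM (log2 fold change -0.38). Leaving out DG/DG replicate 3 made the value of Mrpl12 -0.57, and leaving out DG/DG replicate 2 made it -0.26.

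Nuclear genes of oxidative phosphorylation stood higher for 71 of 76 members (93.4%), and their median of 0.089 stayed between 0.076 and 0.12 with each library left out. An unadjusted p under 0.05 was reached by 7 (9.21%, against 1.68% of all genes) in the higher direction and 0 in the lower (against 1.62%). The DG/DG libraries lay above all DG/+ libraries for 8 genes (10.5%, against 0.803% of all genes): the complex I genes Ndufb3, Ndufc1 and Ndufs5, the complex III genes Uqcrh, Uqcr10 and Uqcr11, the cytochrome oxidase gene Cox5b and the ATP synthase gene Atp5j2. Ndufc1 was at 18.8, 22.6, 19.9 and 19.9 CPM against 14.5 to 18.1 CPM (log2 fold change 0.31), and Uqcrh at 141.3, 125.8, 129.2 and 131.3 CPM against 113.4 to 121.1 CPM (0.18). These 4 values of Ndufc1 and Uqcrh in DG/DG exceeded all 6 in DG/+. With the offset the median of the list was 0.056 and 60 of 76 genes stood higher. Summed levels of the list overlapped, at 7900 to 8755 CPM in DG/DG and 7599 to 8223 CPM in DG/+, and WT replicate 1 was at 8823 CPM. WT replicate 1, at 133.4 CPM for Uqcrh, lay within the DG/DG range, while the other 3 WT libraries, at 111.4 to 115.4 CPM, overlapped the lower end of the DG/+ range.

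**Figure D4:**
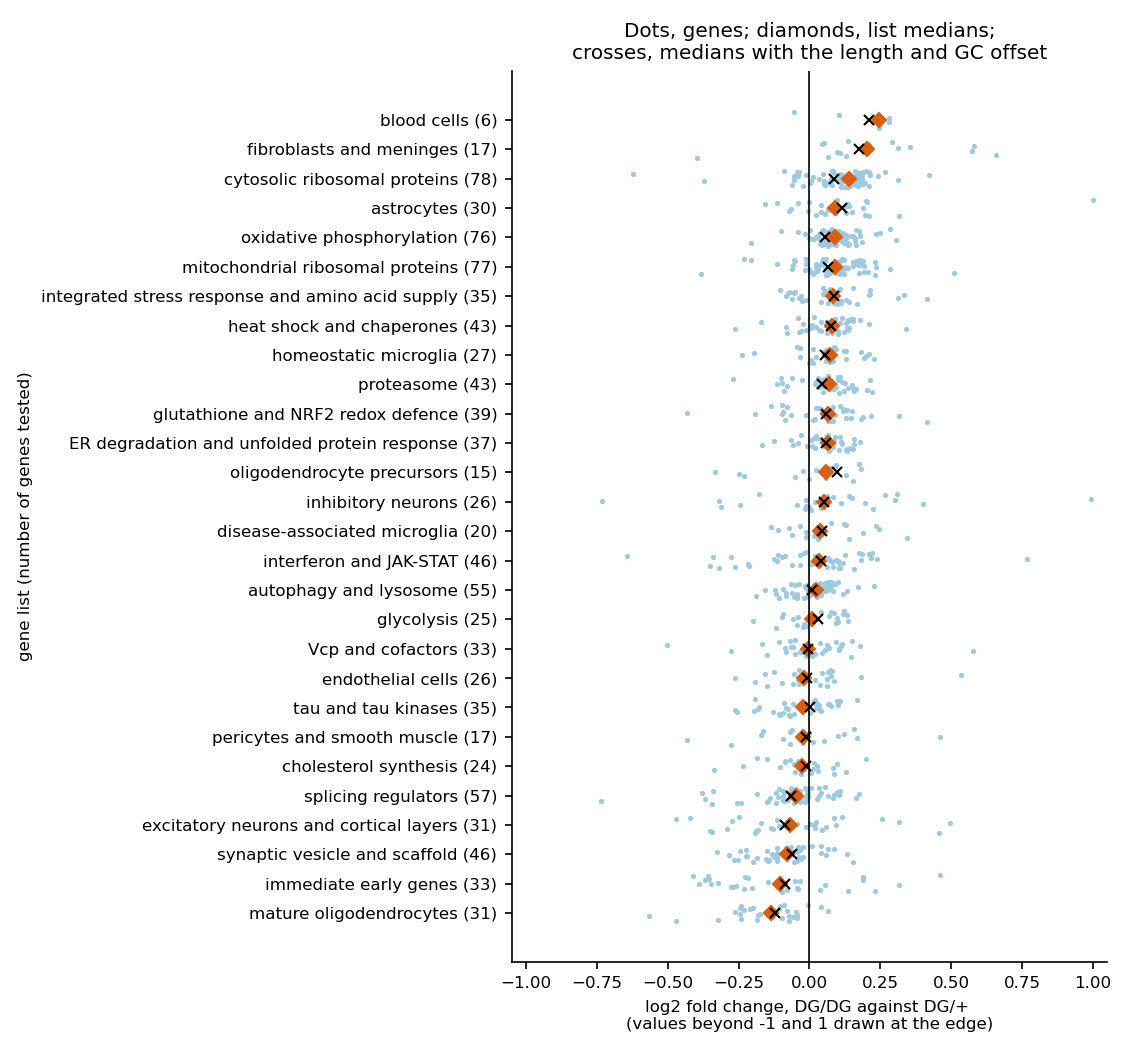
Log2 fold change of DG/DG against DG/+ (horizontal axis) for the tested genes of each pathway and cell type list, with the list's median as a diamond and its median with the length and GC offset as a cross. Medians run from -0.135 for mature oligodendrocytes to 0.247 for the 6 blood cell genes, and cytosolic ribosomal proteins lie at 0.14.

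The protein quality control machinery that works with Vcp showed small differences. Of 43 proteasome genes, 35 stood higher (81.4%), with a median of 0.069, and 3 had an unadjusted p under 0.05 in the higher direction (6.98%, against 1.68% of all genes). The median was 0.10 without DG/DG replicate 4 and 0.042 without DG/+ replicates 1, 5 and 6. Psma2, Psma7 and Psmb1, subunits of the 20S core, had log2 fold changes of 0.22, 0.20 and 0.20. Psma2 was at 62.8 to 72.0 CPM in DG/DG and 54.1 to 62.8 CPM in DG/+, the lowest DG/DG library level with the highest DG/+ library. Psmb2 was the proteasome gene with DG/DG libraries above all DG/+ libraries (2.33% of the list, against 0.803% of all genes). It was at 42.6 to 48.2 CPM in DG/DG and 35.7 to 42.1 CPM in DG/+. Summed proteasome levels overlapped, at 2613 to 2885 against 2562 to 2769 CPM.

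Chaperone genes stood higher for 34 of 43 members (79.1%, median 0.079), with 0 at an unadjusted p under 0.05. The members with the smallest p were subunits of the cytosolic chaperonin that folds actin and tubulin: Cct6a (0.15), Cct8 (0.15), Cct5 (0.18), Cct4 (0.15) and Tcp1 (0.15). Cct6a and Hspa4, a co-chaperone in disaggregation, had DG/DG libraries above all DG/+ libraries (4.65% of the list, against 0.803% of all genes). In the list for degradation from the endoplasmic reticulum and the unfolded protein response, 30 of 37 genes stood higher (81.1%, median 0.064). Edem3, which trims glycans of misfolded proteins, had a log2 fold change of 0.16, Pdia3 and Canx of glycoprotein folding had values of 0.15 and 0.13, and the ubiquitin ligase gene Syvn1 had -0.17. Without DG/DG replicate 3 the medians of these chaperone and endoplasmic reticulum lists were 0.042 and 0.040, and without DG/+ replicates 1, 5 and 6 they were 0.032 and 0.014.

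Autophagy and lysosome genes were close to all genes, with 31 of 55 higher (56.4%) and a median of 0.024 that lay between 0 and 0.040 with each library left out. Hexa, a lysosomal hexosaminidase, was at 55.8 to 62.6 CPM against 48.5 to 54.0 CPM without overlap (log2 fold change 0.17). Atg14, which directs the lipid kinase of autophagosome formation, was at 18.3 to 24.5 CPM against 22.3 to 26.2 CPM (-0.19). Tau with its kinases and microtubule partners had 17 of 35 genes higher, a median of -0.022 and 0 genes at an unadjusted p under 0.05. This median was -0.065 without DG/DG replicate 3, -0.049 without DG/+ replicate 4 and -0.036 without DG/+ replicate 1. Mark2, a kinase of tau, was at 81.3 to 110.2 CPM against 100.6 to 126.9 CPM (-0.20), with DG/DG replicate 2 the lowest.

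Slc7a11 also belongs to the amino acid stress response and to the glutathione list, and the rest of these lists differed less. In the integrated stress response list 24 of 35 genes stood higher (68.6%, median 0.084). In the higher direction 2 had an unadjusted p under 0.05 (5.71%, against 1.68% of all genes), Slc7a11 and the transfer RNA ligase gene Eprs. The median was 0.046 without DG/DG replicate 1, 0.055 without DG/+ replicate 4 and 0.042 without DG/+ replicates 1, 5 and 6. Eprs was at 169.5 to 207.5 CPM against 150.5 to 183.6 CPM (log2 fold change 0.15), with DG/DG replicate 2 the highest. Asns, asparagine synthetase, was at 109.4 to 131.3 CPM against 99.9 to 119.1 CPM (0.14), and Sesn2, a stress sensor of amino acid supply, had a value of 0.21. Both groups overlapped for these 3 genes. Among 39 glutathione and NRF2 genes, 29 stood higher (74.4%, median 0.067). Slc7a11 and Prdx2 lay above all DG/+ libraries (5.13%, against 0.803% of all genes). Txn2 lay below them (1 of 39, against 0.405% of all genes). The antioxidant genes Gsto1, Prdx1 and Prdx3 had values of 0.22, 0.15 and 0.13.

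Splicing regulators stood lower in DG/DG by count. Of 57 genes, 14 stood higher (24.6%, against 50.6% of all genes), with a median of -0.047, and 6 had an unadjusted p under 0.05 in the lower direction (10.5%, against 1.62%). These included Sugp1, Srpk3, Srrm3 and Rbfox3, described above, and Srsf4, an SR protein at 20.96 to 32.6 CPM against 28.3 to 42.1 CPM (-0.37). This list, like the others, was written with earlier results of these data known, so its shares are not a test. The median was 0.0064 without DG/+ replicate 4 and -0.003 without DG/DG replicate 1. It was -0.11, -0.023 and -0.029 without DG/DG replicates 2, 3 and 4, so its size and sign rested on single libraries. In the 7 libraries with high Xist it was 0.014.

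Interferon and JAK-STAT genes stood higher in 28 of 46 cases (60.9%, median 0.035), while the 3 at an unadjusted p under 0.05, Stat2, Sp100 and Irf3, were lower (6.52%, against 1.62% of all genes). The median was -0.043 without DG/DG replicate 1, 0.0068 without DG/+ replicate 4, 0.0093 without DG/+ replicate 6 and 0.070 without DG/+ replicate 2. Irf3, the factor activated by cytosolic nucleic acid sensing, was at 11.6 to 14.8 CPM against 12.4 to 19.97 CPM (-0.35). Synaptic genes stood higher for 8 of 46 members (17.4%, median -0.080). That median was -0.13 without DG/+ replicate 4 and -0.032 without DG/+ replicates 1, 5 and 6. Unc13a, Stx1a and Shank3 had values of -0.22, -0.27 and -0.25 with overlapping libraries. Immediate early genes, induced by neuronal activity, stood higher for 8 of 33 members (24.2%, median -0.10), with 0 at an unadjusted p under 0.05. Trib1 (-0.36) and Ier3 (-0.35) were among those with the smallest p. The median of the list was -0.033 without DG/DG replicate 3, -0.17 without DG/DG replicate 4 and -0.19 without DG/+ replicate 4. Cholesterol synthesis genes stood higher in 10 of 24 cases (median -0.027), with Tm7sf2 at -0.23, and glycolysis genes in 13 of 25 (median 0.0079), with Pgk1 at 0.14 and Gapdh at -0.20. With each library left out these medians ran from -0.057 to -0.0067 and from -0.012 to 0.024.

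Among cell types, genes of mature oligodendrocytes, the myelin-forming cells, stood lower in DG/DG. Only 2 of 31 genes stood higher (6.45%, against 50.6% of all genes), with a median of -0.135, and Mbp and Mobp had an unadjusted p under 0.05 in the lower direction (6.45%, against 1.62%). Mbp, myelin basic protein, was at 843.6, 632.5, 1226 and 708.9 CPM in DG/DG replicates 1 to 4 and at 1060 to 1304 CPM in DG/+ (median 1196). Replicate 3 of DG/DG lay within the DG/+ range and the other 3 lay below it. The log2 fold change was -0.47 (SE 0.190). It was -0.70 without DG/DG replicate 3, -0.35 without DG/DG replicate 2 and -0.39 without DG/DG replicate 4. WT, at 705.7 to 1362 CPM, spanned both groups.

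Mobp, another myelin protein gene, followed the same libraries, at 130.1, 135.5, 211.6 and 150.3 CPM against 180.9 to 209.9 CPM (log2 fold change -0.32). DG/DG replicate 3 was the highest of its group for 25 of the 31 oligodendrocyte genes and DG/DG replicate 4 the lowest for 24. The list's median was -0.22 without the former and -0.031 without the latter. DG/DG replicate 3 also held the most striatal transcripts of its group, and the part of these transcripts in the myelin values was not tested. Plekhb1 and Cryab had values of -0.21 and -0.26. Enpp2, at -0.57, is also abundant in choroid plexus, and was highest in DG/+ replicates 1 and 5 at 615.7 and 537.0 CPM. Oligodendrocyte precursor genes had a median of 0.057 with 9 of 15 higher, but -0.051 without DG/DG replicate 4, -0.0089 without DG/DG replicate 3 and 0.15 without DG/DG replicate 2.

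Astrocyte genes stood higher in 23 of 30 cases (76.7%, median 0.091). At an unadjusted p under 0.05 in the higher direction there was 1 (3.33%, against 1.68% of all genes), Mlc1. This membrane protein of astrocyte endfeet was at 184.9, 155.3, 189.7 and 172.4 CPM against 138.7 to 167.1 CPM (log2 fold change 0.19). The water channel gene Aqp4 and the glutamate transporter gene Slc1a3 had values of 0.21 and 0.19. The median was 0.028 without DG/+ replicate 4, 0.036 without DG/DG replicate 4 and 0.15 without DG/DG replicate 2. Homeostatic microglia genes stood higher in 22 of 27 cases (81.5%, median 0.072). C1qa, a complement chain made by microglia, was at 50.9, 44.3, 44.7 and 47.8 CPM against 37.4 to 43.1 CPM (0.23), without overlap, while WT ran from 31.6 to 49.8 CPM. Selplg had a value of 0.21. The microglial median was 0.0055 without DG/DG replicate 1, the library with pituitary transcripts. It was 0.034 and 0.045 without DG/+ replicates 5 and 4, and 0.12 without DG/DG replicate 2. Disease-associated microglia genes had a median of 0.038 (-0.075 without DG/DG replicate 1 and 0.090 without DG/DG replicate 2), with Apoe at 0.14 and Spp1 at 0.34, and 0 of 20 at an unadjusted p under 0.05.

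Vascular, meningeal and neuronal lists had medians of either sign. Endothelial genes had a median of -0.019 with 12 of 26 higher, and pericyte and smooth muscle genes -0.024 with 7 of 17 higher, Pdgfrb among the lower at -0.28. The sign of both medians rested on single libraries, which left out in turn gave values from -0.057 to 0.078 and from -0.059 to 0.11. Fibroblast and meningeal genes stood higher for 16 of 17 members (median 0.20), a median that was -0.0005 without DG/DG replicate 1, 0.017 without DG/+ replicate 4 and 0.38 without DG/+ replicate 5. Their summed level was 578 to 957 CPM in DG/DG and 345 to 1199 CPM in DG/+. Excitatory neuron and cortical layer genes stood higher in 13 of 31 cases (median -0.067), with Slc17a7 at -0.19 and Tbr1 at -0.35, and the median was -0.12 without DG/+ replicate 5 or without DG/DG replicate 1. Inhibitory neuron genes stood higher in 16 of 26 cases (median 0.051, but -0.048 without DG/DG replicate 3, where striatal transcripts were abundant). In the blood list 6 genes were tested, with a median of 0.247 that was -0.048 without DG/DG replicate 4, and the adult globin pairs Hbb-b1 and Hbb-b2, and Hba-a1 and Hba-a2, carried identical values, at most 7.001 CPM.

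Marker lists of neighbouring tissues set single mice apart. Summed choroid plexus and ependyma levels over 25 genes were 66.0 to 88.0 CPM in DG/DG and 48.5 to 707 CPM in DG/+. Ttr, the transthyretin gene of choroid plexus, was at 525.5, 12.6, 62.9, 1.53, 536.7 and 192.6 CPM in DG/+ replicates 1 to 6 and at 9.06 to 18.4 CPM in DG/DG. The list's median log2 fold change was -0.83, and 0.31 without DG/+ replicates 1, 5 and 6. Tmem72 was listed at 0 in DG/+ replicate 4 and Slc4a5 in DG/DG replicate 4. Summed pituitary levels were 4467 CPM in DG/DG replicate 1, 179 to 223 CPM in the other DG/DG libraries and 136 to 232 CPM in DG/+.

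Regional markers were high in single libraries likewise. Summed striatal levels over 20 genes were highest in DG/+ replicate 4 (3506 CPM) and DG/DG replicate 3 (3232 CPM), against 737 to 1856 CPM in the other 5 DG/+ and 729 to 1696 CPM in the other 3 DG/DG libraries. The same 2 libraries held the most Lhx8, a factor of cholinergic neurons of the basal forebrain, at 3.22 and 5.62 CPM, and DG/DG replicate 3 alone of the 10 held Pmch, a lateral hypothalamic peptide, above 1 CPM, at 53.2 CPM. Cerebellar granule cell genes marked DG/+ replicate 2, with Cbln3 at 24.3 CPM and Fat2 at 41.6 CPM, where the other 9 held at most 2.88 CPM of either. Thalamic Prkcd marked DG/+ replicate 6 at 87.4 CPM, where the other 9 held at most 14.9 CPM. Omp, the olfactory marker protein gene, was the olfactory list member at an unadjusted p under 0.05 (9.09%, against 1.62% of all genes lower). It was at 0.160 to 1.28 CPM in DG/DG and 0.908 to 2.61 CPM in DG/+ (-1.58). The part of these regional transcripts in the gene differences described above was not tested, beyond the values given without these libraries.

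**Figure D5:**
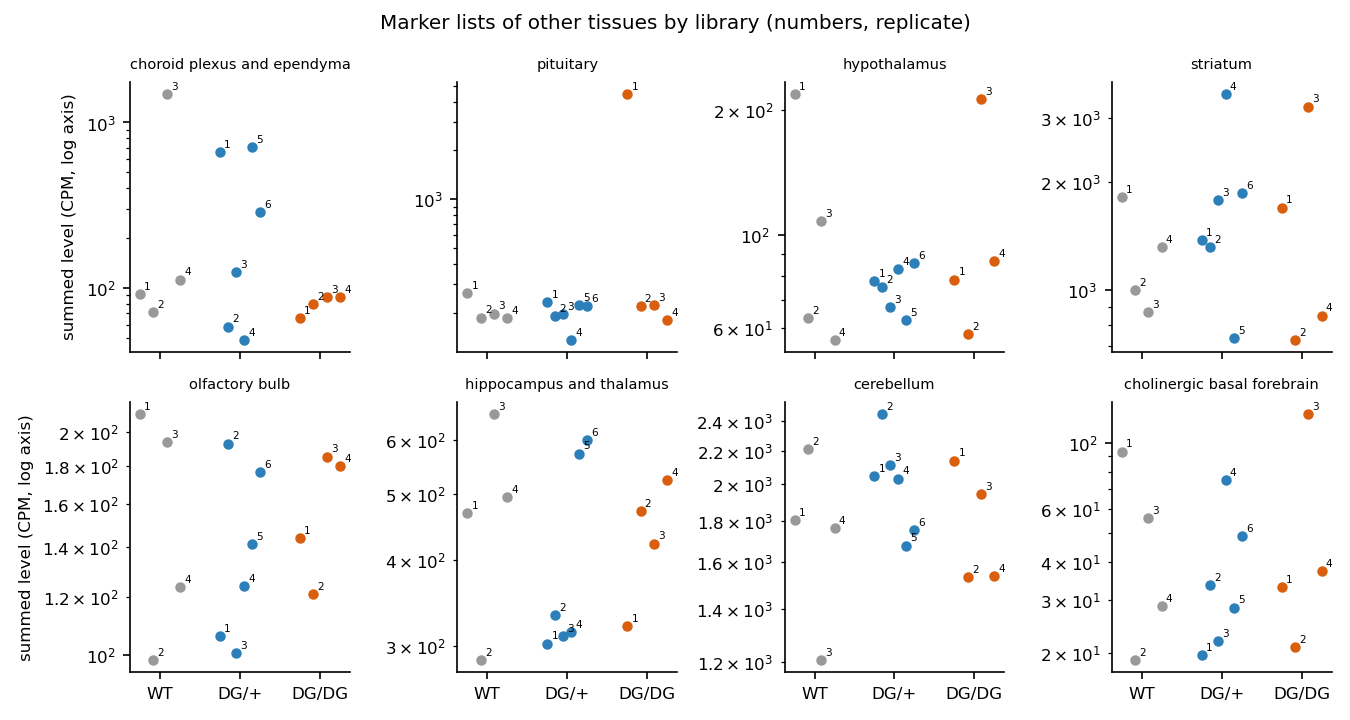
Summed level in CPM (log vertical axes) of the marker genes of 8 tissues or regions near the cortex, by group, with a point for each library and its replicate number. DG/DG replicate 1 stands at 4467 CPM in the pituitary panel, and DG/+ replicates 1, 5 and 6 stand highest of their group in the choroid plexus panel.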

How the data were processed

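RNA from the anterior cortex of 14 mice was sequenced, 1 library per mouse, and libraries were grouped by the genotype in their labels. The authors deposited a table of raw read counts for 24939 RefSeq transcripts, with log2 values beside them that the authors normalized by a method not given in the sources used here (the same maximum, 16.54, in all 14 libraries). Genome build mm10 and edgeR are named in the submitters' processing notes. Aligner, counter and use of strand: not given in the sources used here. The log2 values served for 1 alternative, and the deposited fold changes and p-values of the authors were not used.

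For each of 19360 gene symbols the transcript row with the most reads over the 14 libraries was kept, which left out 5579 rows of 3557 genes. The count model was edgeR 4.0.16 under R 4.3.3: low-count filter by group, TMM scaling, a robust quasi-likelihood fit of all 14 libraries, the contrast DG/DG minus DG/+, and Benjamini-Hochberg adjustment over 14565 genes. Replicates are separate mice. Levels are CPM after TMM scaling, and fold changes are DG/DG over DG/+. Vcp was also tested by a two-sided exact permutation test of log2 CPM in scipy 1.17.1. Precision is given as SD, SE or the 95% confidence interval, and the common biological coefficient of variation was 15.9%. The code was tested on simulated data first. Alternatives used DESeq2 1.42.0, limma 3.58.1 (voom, and trend on the deposited log2 values), other scalings and filters, a length and GC offset by lowess (lengths and GC from GENCODE transcripts, for 98.3% of tested genes), every transcript row, and each library left out in turn. Those chosen after seeing the data were the log2 values, the library sets left out together, and the Xist settings.

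The comparison, the gene lists and the naming rule were chosen with earlier results of these data known. Genes named are Vcp, the 15 higher and the 15 lower genes of smallest p that averaged 1 CPM or more, and at most 5 members of each list with the smallest p, with up to 3 of the most abundant members added for other tissues; some genes that the rule names are not reported here. Members without overlap between groups, and Agt, Fibcd1, Dcn and Timp2 where the closing section sets their libraries side by side, were named after their values were seen. The 36 lists were written from general knowledge and describe the data only. Coordinates and promoters are RefSeq, GRCm38.p6. Replicate numbers shared by DG/DG and DG/+ name different mice.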

Additional observations from a re-analysis of the deposited data

Results flagged for a closer look

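For 26 of 318 sets of values, a single library lay far from the rest of its group, by Dixon's ratio of the gap to the whole range at the 95% level. Chance alone marks about 5% of sets chosen without regard to their values. Some of these genes were named for a high level in any library or after their values were seen. The summed lists also hold some of the named genes, so the share marked cannot be set against that rate. The sets were 123 genes named in the text and the summed levels of 36 lists, in DG/+ and in DG/DG.

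Library DG/DG replicate 1 stood apart for Gh (1049 CPM, next 17.9), Pomc (321.7, next 9.44), Prl (2737, next 72.6) and the summed pituitary list (4467, next 222.6). It was also highest for the presynaptic gene Stx1a (235.7, next 174.6) and for the summed interferon and JAK-STAT list (1090, next 956.1).

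DG/DG replicate 3 stood apart for the hypothalamic gene Pmch (53.2 CPM, next 0.640), for Lhx8 (5.62, next 0.982) and for the summed cholinergic basal forebrain list (124.4, next 37.5). The same library was highest for Atp5j2 (71.1, next 67.1), Cox5b (33.03, next 30.3) and Psmb2 (48.2, next 43.5). Replicate 2 of DG/DG was lowest for Mark2 (81.3, next 106.0), Shank3 (149.5, next 199.6) and Txn2 (30.2, next 46.5).

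DG/+ replicate 4 was highest for Lhx8 (3.22 CPM, next 0.593) and lowest for Slc17a7 (735.1, next 953.6). Its summed levels were the lowest for tau and its kinases (8533, next 9278), synaptic genes (20886, next 23773) and astrocyte genes (12776, next 14938). DG/+ replicate 2 stood apart for the cerebellar genes Cbln3 (24.3, next 1.71) and Fat2 (41.6, next 2.67). DG/+ replicate 6 stood apart for thalamic Prkcd (87.4, next 14.9) and, at a level near 0, for Pmch (0.558, next 0.238). DG/+ replicate 5 stood apart for hippocampal Fibcd1 (79.4, next 21.99) and the summed fibroblast and meningeal list (1199, next 658.4).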

How the results depend on the processing

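No alternative called a gene at an adjusted p below 0.05, and raising the limit to 0.1 in the edgeR fit also called 0. The counts at an unadjusted p under 0.05 did move. Against 245 higher and 236 lower genes, the fit of only the DG/+ and DG/DG libraries gave 434 and 376, and only the 7 libraries with high Xist gave 368 and 560. Without DG/+ replicates 1, 5 and 6 the lower count was 105. With single libraries left out the higher count ran from 145 to 347 and the lower count from 144 to 557. The other scalings, filters and tests gave 222 to 314 higher and 203 to 337 lower genes. The causes were not tested.

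The difference in Vcp of 0.147 lay between 0.12 and 0.16 with each library left out. It missed the threshold with the 7 libraries of high Xist (0.148) and without DG/+ replicates 1, 5 and 6 (0.0997), sets whose smallest exact permutation p is 0.0571.

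Replicate numbers do not pair the mice. The deviations of same-numbered DG/DG and DG/+ libraries from their group means correlated at 0.292, -0.042, 0.199 and -0.169 across genes. With the replicate block edgeR called 0 genes, and 210 higher and 140 lower genes had an unadjusted p under 0.05. Vcp then had a log2 difference of 0.106, with an edgeR p of 0.171.

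Of 720 values of the 30 ranked genes under alternatives, 0 changed sign, but these genes were ranked on the same libraries. Of 864 list medians under alternatives, 11 moved by more than 1 SD of the list's mean level per library, among them the pituitary, choroid plexus, fibroblast and cytosolic ribosomal lists when the libraries named in the report were left out. Disease-associated microglia genes had a median of -0.075 without DG/DG replicate 1, and cholinergic basal forebrain genes -0.78 without DG/DG replicate 3. Every transcript row was tested for the counts only, not for single genes or list medians. With 4 and 6 mice, a gene of typical spread had an interval of 0.251 to either side on the log2 scale.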

Other observations

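Several cell type markers had high levels in the same few libraries of each genotype. Fibcd1, a marker of hippocampal CA1 neurons, was at 79.4 CPM in DG/+ replicate 5, at 62.7 and 66.8 CPM in DG/DG replicates 2 and 4 and at 90.3 CPM in WT replicate 3, against 9.38 to 26.1 CPM in the other 10 libraries. Dcn, a proteoglycan gene of meningeal fibroblasts, was highest in the same 4 libraries, at 39.0, 28.6, 50.3 and 63.4 CPM, against 6.28 to 23.6 CPM in the rest.

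Timp2, an inhibitor of matrix proteases, was at 317.8 CPM in DG/DG replicate 4 and 354.6 CPM in WT replicate 3, and at 160.3 to 237.7 CPM in the other 12 libraries. Agt, the angiotensinogen gene of astrocytes, was at 7.27, 13.998, 50.6 and 35.6 CPM in DG/DG and 5.07 to 21.8 CPM in DG/+, with WT at 8.68 to 60.2 CPM. Its highest libraries, WT replicate 1 and DG/DG replicate 3, were also those with the most Pmch, at 40.5 and 53.2 CPM.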
